A study of Homo sapiens with 6 samples.

Results

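Genes that report on signalling through the ERK branch of the MAPK pathway were described in 3 multiple myeloma cell lines. The list held 10 symbols, the immediate early transcription factor genes EGR1, FOS and JUNB, the ERK feedback genes DUSP4, DUSP5, DUSP6, SPRY2, SPRY4 and SPRED2, and the ETS factor gene ETV5. The platform annotation named 9 of them, out of 14884 named genes in all, and SPRED2 was not among the named probe sets. The members were chosen by gene symbol, with earlier results on these arrays in view, and each gene with several probe sets was represented by the one selected on the highest mean over the 6 arrays. Their levels in the 3 lines are therefore given as a description with no test.

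The study asked which transcripts change when miR-10a is supplied in excess. RPMI8226, KMS11 (also written KMS-11 in the labels) and U266, established lines of malignant human plasma cells, were each transfected with 100 nM miR-10a mimic or 100 nM scrambled control using HiPerFect, a lipid reagent that both groups received, and were collected 48 h later. Each line contributed 1 whole-transcript Affymetrix array per treatment, 6 in all, with 3 control and 3 mimic arrays. The labels name no separate cultures, so any p-value measures the spread between these arrays, and in bulk RNA fewer expressing cells and less RNA per cell cannot be told apart.

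When a growth factor receptor is engaged, RAS activates the RAF, MEK and ERK kinases in turn. ERK phosphorylates factors already bound at immediate early genes, which are transcribed within minutes and encode transcription factors of their own. With a delay, ERK also induces its own inhibitors, among them the dual-specificity phosphatases, which dephosphorylate MAP kinases, and the Sprouty and SPRED proteins, which act upstream near RAS and RAF.

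The mature 5′ arm of miR-10a is shown because it is the sequence the mimic of this microRNA would supply, although the labels do not name the arm. It comes from RefSeq (GRCh38.p14), lies at chr17:48579904-48579926 on the minus strand, and has its seed, bases 2 to 8, in capitals.
hsa-miR-10a-5p: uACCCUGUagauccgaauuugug

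Promoters are shown for the 3 immediate early genes and for DUSP6 and SPRY4, whose levels followed different orders across the lines. Each is the 250 bases upstream of a RefSeq transcript start (GRCh38.p14), read 5′ to 3′ on the gene's strand. Capitals mark matches to the CArG box, the core that binds serum response factor, to the CRE half-site (TGACG, either strand), to the AP-1 site (TGANTCA, either strand) and to an ETS site (CGGAAG, either strand). EGR1 lies on the plus strand at chr5:138465229-138465478, FOS on the plus strand at chr14:75278578-75278827, JUNB on the plus strand at chr19:12791236-12791485, DUSP6 on the minus strand at chr12:89352502-89352751 and SPRY4 on the minus strand at chr5:142324248-142324497.
EGR1: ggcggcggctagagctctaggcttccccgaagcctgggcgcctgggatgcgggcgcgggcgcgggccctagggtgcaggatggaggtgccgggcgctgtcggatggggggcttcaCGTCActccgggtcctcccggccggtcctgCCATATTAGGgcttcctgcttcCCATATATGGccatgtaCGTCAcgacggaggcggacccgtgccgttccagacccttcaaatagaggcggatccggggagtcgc
FOS: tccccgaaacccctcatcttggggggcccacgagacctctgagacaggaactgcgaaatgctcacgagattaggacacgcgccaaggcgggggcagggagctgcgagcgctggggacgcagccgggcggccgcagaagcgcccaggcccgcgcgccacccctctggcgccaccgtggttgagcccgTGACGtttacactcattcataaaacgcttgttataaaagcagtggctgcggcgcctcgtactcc
JUNB: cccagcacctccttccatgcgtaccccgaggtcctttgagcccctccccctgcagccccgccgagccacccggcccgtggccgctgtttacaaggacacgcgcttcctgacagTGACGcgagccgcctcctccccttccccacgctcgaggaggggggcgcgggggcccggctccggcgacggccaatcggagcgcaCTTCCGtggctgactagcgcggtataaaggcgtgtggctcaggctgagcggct
DUSP6: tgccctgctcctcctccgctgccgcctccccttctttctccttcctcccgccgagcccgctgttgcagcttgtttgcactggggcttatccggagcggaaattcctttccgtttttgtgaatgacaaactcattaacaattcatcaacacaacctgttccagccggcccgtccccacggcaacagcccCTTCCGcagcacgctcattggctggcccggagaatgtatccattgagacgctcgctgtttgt
SPRY4: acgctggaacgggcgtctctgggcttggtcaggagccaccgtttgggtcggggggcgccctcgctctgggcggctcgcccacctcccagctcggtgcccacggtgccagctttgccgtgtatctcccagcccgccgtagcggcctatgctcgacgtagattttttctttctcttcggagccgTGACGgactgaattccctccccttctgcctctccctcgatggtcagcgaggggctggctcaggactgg

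The EGR1 window held 2 CArG boxes, starting 105 and 83 bases upstream of the transcript start, and 2 CRE half-sites, starting 135 and 66 bases upstream. Among 35116 promoter windows of 250 bases, 1.16% held a CArG box and 0.0313%, or 11 windows, held 2 or more. The FOS window held 1 CRE half-site, starting 64 bases upstream, and the SPRY4 window 1, starting 68 bases upstream. The JUNB window held 1 CRE half-site, starting 137 bases upstream, and 1 ETS site, starting 53 bases upstream, and the DUSP6 window 1 ETS site, starting 62 bases upstream. A CRE half-site occurred in 21.2% of all windows, an ETS site in 16.5% and an AP-1 site in 6.57%. None of the 5 windows shown held an AP-1 site, and only that of EGR1 held a CArG box. Both statements concern these letters in these windows only, and bases further upstream were not searched.

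The 6 arrays had medians between 3.61 and 3.66 log2 units over all probe sets, and the files give no detection calls, so a value near that level may or may not lie above background. Control and mimic arrays of one line had correlations of 0.992 to 0.993. The tests covered the 7442 genes with a mean of at least 4.70 log2 units, the midpoint of the named genes. Of the members, 6 were among them, and DUSP4, SPRY2 and SPRY4 were not. Of 8 plasma cell markers 6 were named, and the lines did not share them all. IRF4 (10.3 to 10.9) and XBP1 (9.34 to 9.65) were high on every array. CD38 was 9.99 and 9.90 in RPMI8226 but 3.80 to 4.92 elsewhere, and SLAMF7 was 7.73 and 7.23 in U266 but 3.27 to 3.79, around the array medians, elsewhere. SDC1 was 9.49 and 9.48 in U266, 7.30 and 7.16 in RPMI8226, and 5.52 and 5.72 in KMS11. The remaining named marker, POU2AF1, was tested but is not described here, whereas XBP1 was picked after its values were seen. The markers shown are therefore not the whole list. The 4 named B cell markers ranged from 2.78 to 5.67, with the tested BCL6 at 4.35 to 5.67 and SPIB at 5.24 to 5.64. The 6 named T cell, myeloid and stromal markers ranged from 1.98 to 5.59, with the tested CD8A at 4.39 to 5.59.

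The immediate early genes shared 1 feature across the lines, in that all 3 were lowest in KMS11. EGR1 encodes a zinc finger transcription factor. Its probe set read 8.51 in the control and 8.56 in the mimic array of RPMI8226, 3.76 and 3.87 in KMS11, and 8.95 and 8.90 in U266 (log2 values, control before mimic here and below). KMS11 was thus near the array median, while both other lines stood far above it, with no overlap. The gap between the nearest arrays was 4.64 log2 units, against at most 0.12 between the arrays of any one line. No fold is given, since the KMS11 values may not lie above background. U266 exceeded RPMI8226 by a gap of 0.33, also more than that spread.

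FOS encodes a subunit of the AP-1 transcription factor. Its values were 8.08 and 8.24 in RPMI8226, 6.52 and 6.11 in KMS11, and 7.25 and 7.12 in U266. The lines did not overlap, with RPMI8226 highest and U266 between the others, and RPMI8226 was 3.60-fold above KMS11. JUNB encodes a partner of FOS in AP-1. It read 8.65 and 8.61 in RPMI8226, 6.996 and 7.26 in KMS11, and 8.55 and 8.44 in U266. KMS11 was 2.83-fold below RPMI8226, whereas RPMI8226 and U266 were separated by only 0.06 log2 units, less than the 0.11 between the U266 arrays.

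**Figure D1:**
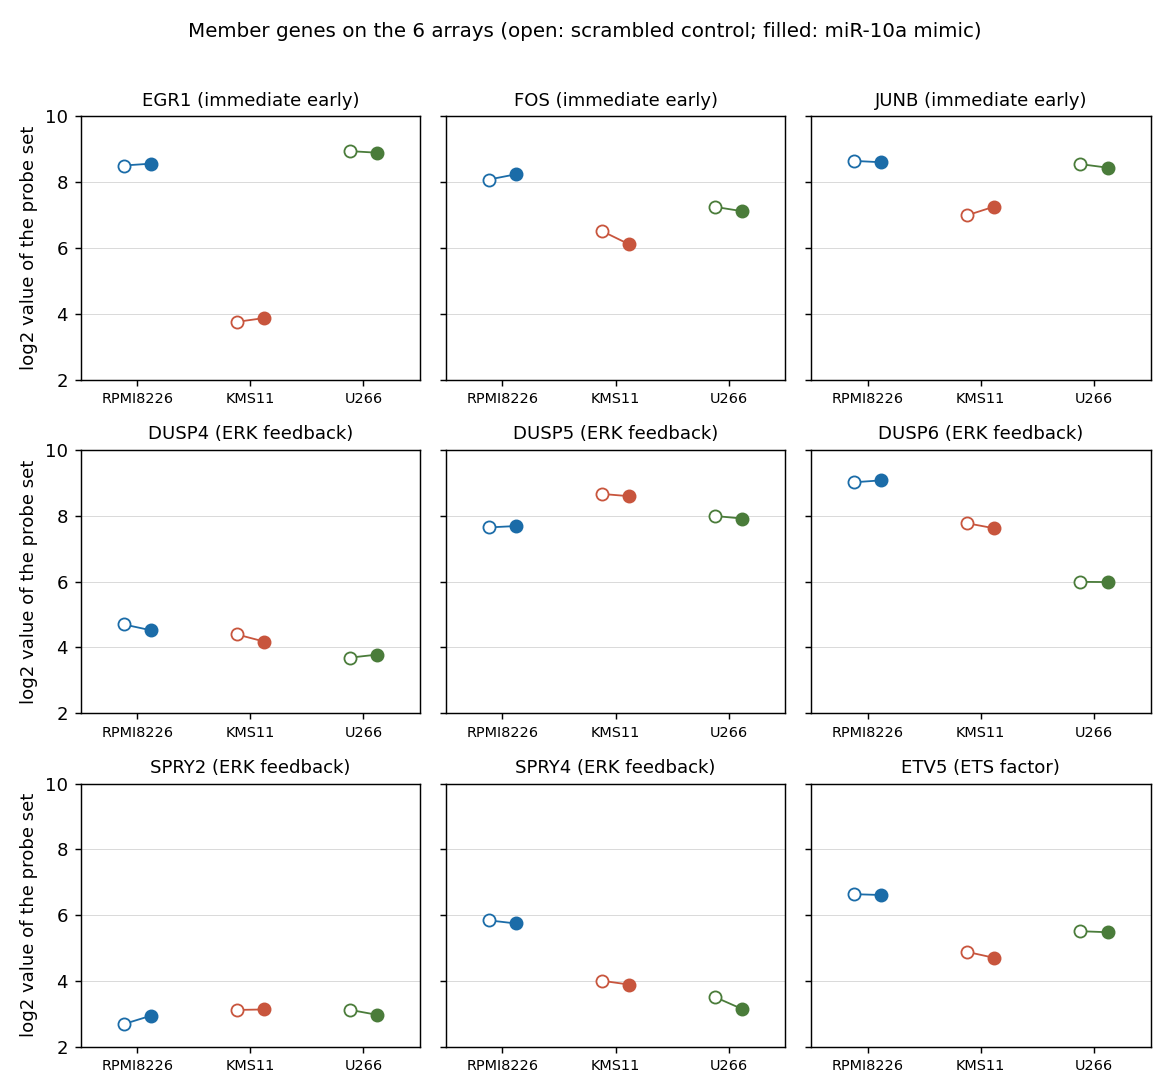
Log2 values (y axis) of the 9 named genes in RPMI8226, KMS11 and U266 (x axis), with open circles for scrambled control and filled circles for miR-10a mimic, 1 array each. EGR1 in KMS11 reads 3.76 and 3.87 against at least 8.51 in the other lines, and the circles of a line lie close together for every gene. Heights of different genes are not comparable, since each probe set has its own response.

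The feedback genes followed other orders. DUSP6, a cytoplasmic phosphatase that acts on ERK, read 9.02 and 9.08 in RPMI8226, 7.77 and 7.62 in KMS11, and 5.99 and 5.99 in U266. The lines formed 3 separate levels, and RPMI8226 was 8.33-fold above U266. SPRY4, a Sprouty inhibitor of receptor tyrosine kinase signalling, had the same order, with 5.84 and 5.75 in RPMI8226, 4.01 and 3.89 in KMS11, and 3.51 and 3.15 in U266. The U266 values lay below the array medians, so no fold against them is given. KMS11 and U266 were 0.38 apart at their nearest arrays, close to the 0.36 between the U266 arrays. DUSP4, a nuclear phosphatase of ERK, p38 and JNK, read 4.70 and 4.52 in RPMI8226, 4.40 and 4.18 in KMS11, and 3.69 and 3.78 in U266. It was lowest in U266 as well, but RPMI8226 and KMS11 were separated by 0.13, less than the 0.22 between the KMS11 arrays.

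DUSP5, a nuclear phosphatase of ERK, ran the other way. It read 7.65 and 7.69 in RPMI8226, 8.66 and 8.60 in KMS11, and 7.99 and 7.92 in U266. It was the only member highest in KMS11 with no overlap, 1.95-fold above RPMI8226. SPRY2, another Sprouty gene, stayed between 2.69 and 3.14 on all arrays, below the array medians, and its KMS11 and U266 values overlapped. ETV5, an ETS transcription factor gene induced by ERK signalling, read 6.64 and 6.61 in RPMI8226, 4.89 and 4.70 in KMS11, and 5.51 and 5.48 in U266. Its order was that of FOS, with KMS11 lowest and 3.56-fold below RPMI8226.

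Set side by side, the 3 immediate early genes and ETV5 were lowest in KMS11, whereas DUSP4, DUSP6 and SPRY4 were lowest in U266. The median difference KMS11 minus U266 was -1.37 log2 units over the 3 immediate early genes, against 0.04 over all tested genes. Over the feedback genes it was 0.62 for the 5 named ones, which is the value of SPRY4, and 1.19 for the 2 that were tested, DUSP5 and DUSP6. RPMI8226 minus U266 gave medians of 0.13 for the immediate early genes, 0.88 for the 5 feedback genes and 1.39 for the 2 tested ones. All tested genes gave -0.0034. The 0.88 is the value of DUSP4, which was below the filter and read near the array medians in U266. U266 therefore combined the highest EGR1 of the 3 lines with the lowest DUSP6, and KMS11 combined the lowest EGR1 with an intermediate DUSP6. No test of the classes against each other was made, since the genes were chosen with these levels known.

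**Figure D2:**
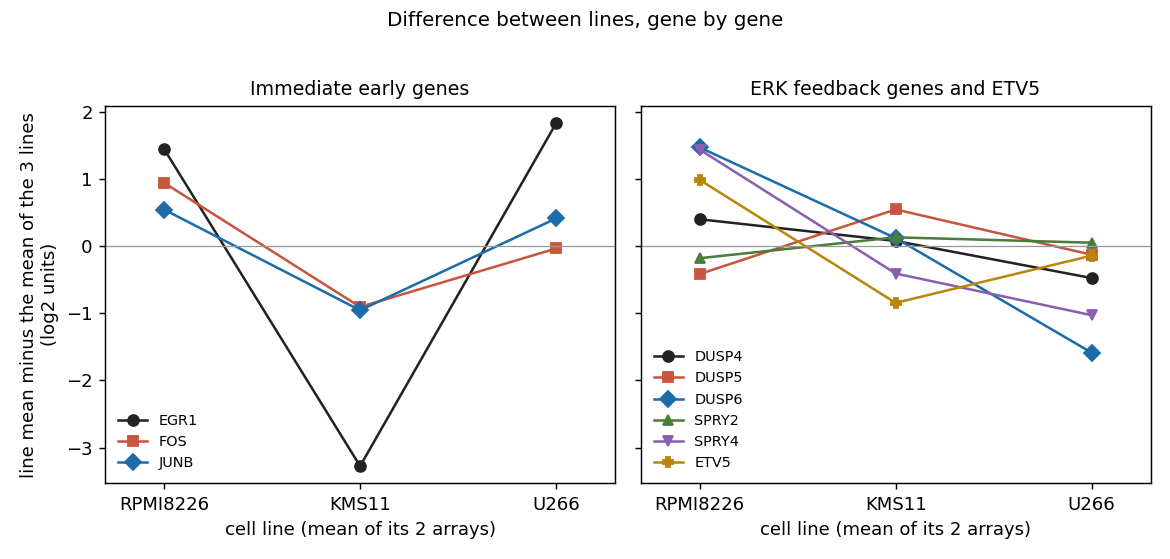
Line mean of each gene minus its mean over the 3 lines (y axis, log2 units) for RPMI8226, KMS11 and U266 (x axis), immediate early genes in the left panel and feedback genes with ETV5 in the right one. EGR1, FOS and JUNB dip in KMS11, while DUSP4, DUSP6 and SPRY4 descend from RPMI8226 to U266 and DUSP5 peaks in KMS11.

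Both arrays of KMS11 lay below the other 4 for 4 of the 6 tested members (EGR1, FOS, JUNB and ETV5), against 20.8% of all tested genes, and by at least 1 log2 unit for EGR1 and JUNB, against 2.06%. Both U266 arrays lay below the other 4 for 1 of the 6 (DUSP6), against 26.4%, and both RPMI8226 arrays above for 4 of the 6 (FOS, JUNB, DUSP6 and ETV5), against 25%. Both KMS11 arrays lay above the other 4 for 1 of the 6 (DUSP5), against 27.3%. These counts describe genes picked with the levels in view and nothing is read from them.

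EGR1, FOS and DUSP5 each had another probe set with the gene's name. The other EGR1 set read 4.80 and 5.42 in RPMI8226, 3.52 and 3.72 in KMS11, and 5.58 and 5.73 in U266, the same order with smaller differences. Averaging the probe sets of a gene lowered RPMI8226 minus KMS11 of EGR1 from 4.72 to 3.11 log2 units. For FOS it moved KMS11 minus U266 from -0.87 to -0.53, and for DUSP5 from 0.67 to 0.42. The order of the lines was unchanged for all 9 genes under this average, array centring and quantile normalization. Taken alone, the other FOS set read 4.97 and 4.73 in KMS11 and 5.09 and 4.99 in U266, nearly overlapping. The other DUSP5 set overlapped between RPMI8226, at 4.753 and 4.894, and U266, at 5.079 and 4.893.

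The genes whose profile was most like that of EGR1 over the 6 arrays, among 2542 candidates with an SD of at least 0.5, were GTSF1 (Pearson's r = 0.9999), LIN28B (0.9998), SELENOI (0.9997), TRUB2 (0.9991) and METAP2 (0.9990). Those most like DUSP6 were SREBF1 (0.9998), SMAP2 (0.9993), ADAM23 (0.9991), KLF6 (0.9987) and TRIO (0.9987). GTSF1, a gene of the piRNA pathway, read 6.81 and 6.85 in RPMI8226, 2.02 and 2.13 in KMS11, below the array medians, and 7.29 and 7.27 in U266. METAP2 had the same shape over a range of 1.07 log2 units. SREBF1, the sterol-regulated transcription factor gene, read 8.37 and 8.36 in RPMI8226, 6.66 and 6.54 in KMS11, and 4.42 and 4.41 in U266. Such values describe likeness of shape over 3 lines with 2 arrays each, and many genes share any such shape.

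With the probe sets used, mimic and control arrays of a line differed by less than 1.5-fold for every member. The other EGR1 set passed 1.5-fold in RPMI8226, at 4.80 in control and 5.42 in mimic. Over all tested genes, the SD of mimic minus control was 0.19 log2 units for RPMI8226, 0.18 for KMS11 and 0.19 for U266. Among the members with these probe sets, FOS in KMS11 and SPRY4 in U266 lay furthest beyond that spread. SPRY4 was not among the tested genes that gave the spread, and its U266 values lay below the array medians. For EGR1 the difference mimic minus control was 0.06 log2 units for RPMI8226, 0.12 for KMS11 and -0.05 for U266. Its mean was 0.04 ± 0.08 (SD, n = 3 lines), and limma's 95% confidence interval, here and below, ran from -0.13 to 0.21. Taking the lines in that order, FOS gave 0.16, -0.40 and -0.13, with a mean of -0.12 ± 0.28 and an interval from -0.41 to 0.16. JUNB gave -0.04, 0.27 and -0.11, with a mean of 0.04 ± 0.20 and an interval from -0.19 to 0.27. With these probe sets, no immediate early gene had the same sign in all 3 lines, and in KMS11 FOS and JUNB had opposite signs.

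Among the feedback genes, SPRY4 was the member with the widest mean change, at -0.10, -0.11 and -0.36. Its mean was -0.19 ± 0.15 (SD, n = 3 lines), with an interval from -0.42 to 0.03. The -0.36 in U266 rested on values below the array medians. SPRY4 and ETV5 had lower values with mimic in all 3 lines. ETV5 gave -0.03, -0.18 and -0.03, with an interval from -0.25 to 0.09. DUSP6 gave 0.06, -0.15 and -0.01, with an interval from -0.21 to 0.15, and DUSP5 gave 0.04, -0.07 and -0.08, with an interval from -0.20 to 0.13. DUSP4 gave -0.18, -0.22 and 0.09, and SPRY2 gave 0.26, 0.01 and -0.15, both at low levels. The 3 immediate early genes had median changes of 0.06, 0.12 and -0.11 for RPMI8226, KMS11 and U266. That of the 5 feedback genes was 0.04, -0.11 and -0.08, and that of all tested genes 0.01, -0.0011 and -0.02.

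**Figure D3:**
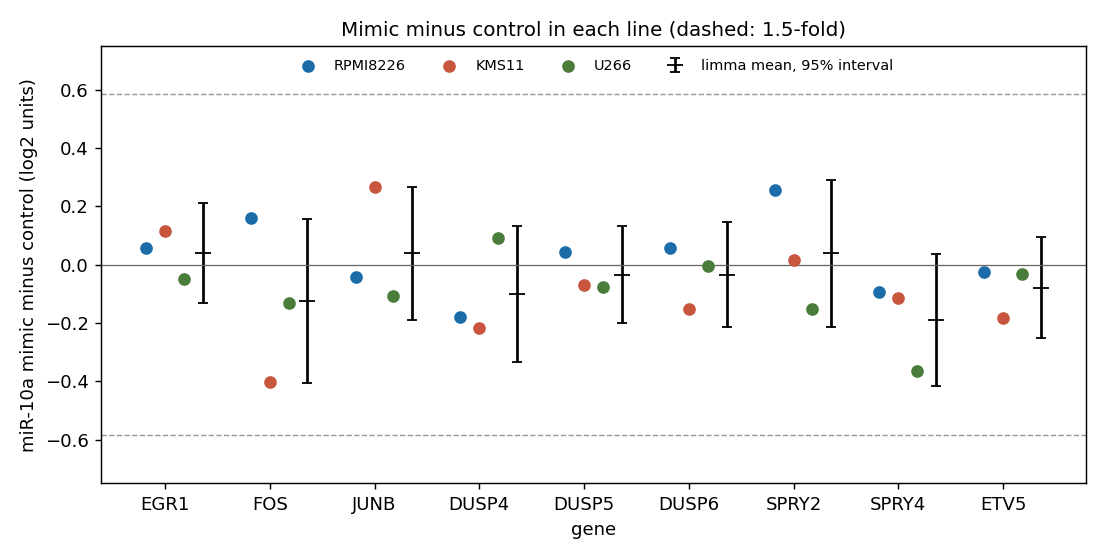
Mimic minus control (y axis, log2 units) for each gene (x axis), with 1 coloured point per line and, in black, limma's mean over the 3 lines with its 95% confidence interval. All 27 points, from the probe sets used, lie within the dashed 1.5-fold limits, and every interval spans 0.

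No member passed the test of the mimic. With the cell line as a block, limma's adjusted p was 0.962 for EGR1, 0.92 for FOS, 0.97 for JUNB, 0.964 for DUSP5, 0.967 for DUSP6 and 0.92 for ETV5. In the fit without the filter it was 0.967 for DUSP4, 0.991 for SPRY2 and 0.967 for SPRY4, which had the smallest unadjusted p of the 9 with these probe sets, 0.0841. Of all 7442 tested genes 0% were called in that fit (403 had an unadjusted p under 0.05). With these probe sets no member moved 1.5-fold in any line, against 1.05% of tested genes for RPMI8226, 0.873% for KMS11 and 1.07% for U266. Each of the 9 intervals, taken singly, lay within 1.5-fold either way on the scale of the array values. A further test, of 1 line's change against the others, rests on 1 control and 1 mimic array of that line. It could miss a change particular to a line, so a lack of calls in it does not show that the lines responded alike. When each line's change was tested against those of the other lines, limma called 0 of 6 tested members and 0% of all genes for each line. The smallest adjusted p over all genes was 0.748 for RPMI8226, 1 for KMS11 and 0.254 for U266, with 480, 298 and 471 genes at an unadjusted p under 0.05.

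Averaging both EGR1 probe sets gave changes of 0.34, 0.16 and 0.05 for RPMI8226, KMS11 and U266, higher with mimic in 3 of 3 lines. The mean rose from 0.04 to 0.18, with an unadjusted p of 0.0619 and a limma adjusted p of 0.911. Leaving out a line turned the sign of 4 mean changes. Without KMS11, FOS was 0.01, JUNB -0.07 and DUSP6 0.03, and without RPMI8226, SPRY2 was -0.07.

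Other genes of the pathway were taken from lists and compared between lines in the same limma fit. Of 30 other immediate early genes 22 were named and 19 tested. Against U266, 11 of the 19 were higher in KMS11 and 3 lower (limma adjusted p under 0.05), against 34% and 29.8% of all tested genes, and the list's median difference was 0.50 log2 units against 0.04. ATF3, a stress-responsive bZIP factor gene, read 8.42 and 8.23 in KMS11, 7.33 and 7.46 in RPMI8226, and 5.13 and 4.76 in U266. JUN, the partner of FOS that JUNB can replace, was highest in KMS11, at 8.37 and 8.32, against 5.10 and 5.04 in RPMI8226 and 6.82 and 6.73 in U266. DUSP1, a phosphatase of stress-activated MAP kinases, had 8.96 and 8.54 in KMS11 and 6.41 and 6.25 in U266. MYC, a growth regulator, read 10.8 and 10.7 in RPMI8226 against 4.92 and 4.43 in U266.

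The 3 genes of that list lower in KMS11 than in U266 were IER2, IER3 and SGK1, named after their values were seen. SGK1, a serum-inducible kinase gene, had a difference KMS11 minus U266 of -2.52 (limma adjusted p = 1.07e-05), IER2 of -0.63 (0.00677) and IER3 of -0.43 (0.0137). Both KMS11 arrays lay below the other 4 for these 3 of the 19 genes, against 20.8% of all tested genes, and both U266 arrays for 7 of the 19, against 26.4%. EGR3 and EGR4, relatives of EGR1, were named but fell below the filter, between 3.55 and 4.58 and between 3.59 and 4.20 over the 6 arrays. Between RPMI8226 and KMS11, 8 of the 19 were higher in RPMI8226 and 9 in KMS11, against 29.4% and 35.6% of all tested genes. Between RPMI8226 and U266, 10 were higher in RPMI8226 and 3 in U266, against 32.4% and 35.1%.

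**Figure D4:**
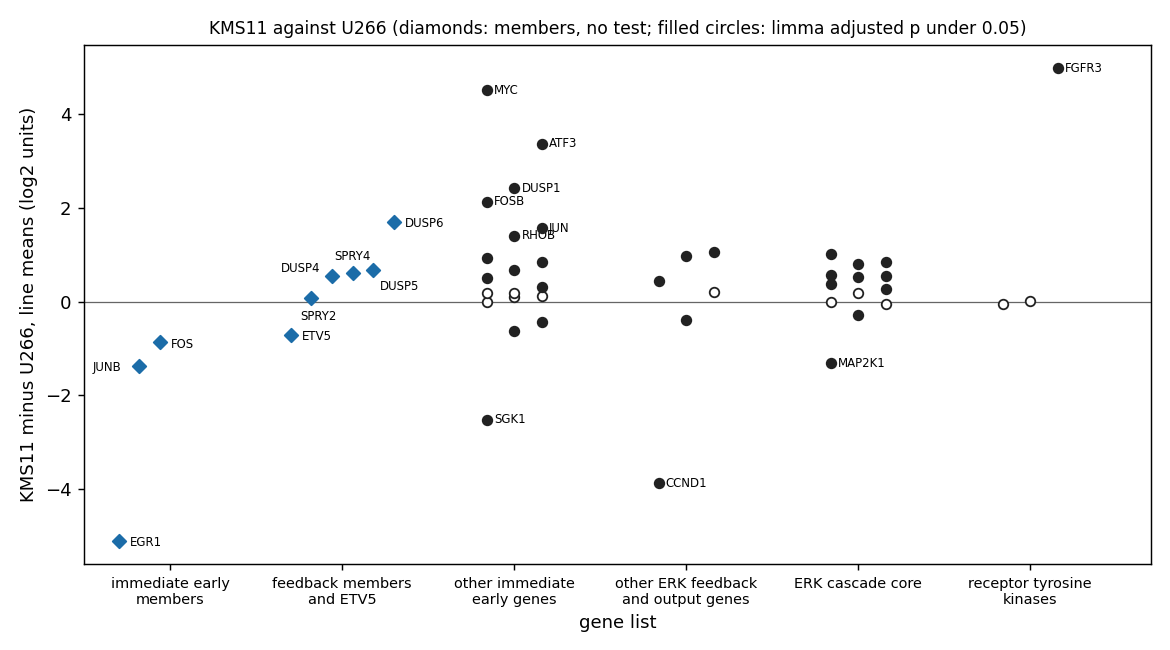
KMS11 minus U266 of the line means (y axis, log2 units) for each gene, by list (x axis), with diamonds for the members, which were not tested, and circles for the tested genes of the other lists, filled where limma's adjusted p was under 0.05. EGR1, FOS and JUNB, picked with their levels in view, lie below 0. Of the 19 other immediate early genes 11 were called above 0 and 3 below, against 34% and 29.8% of all tested genes.

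Of 16 other ERK feedback and output genes 12 were named and 6 tested. Between RPMI8226 and KMS11, 4 were higher in RPMI8226 and 2 in KMS11, against 29.4% and 35.6% of all tested genes. Between RPMI8226 and U266, 3 were higher in RPMI8226 and 2 in U266, against 32.4% and 35.1%. Between KMS11 and U266, 3 were higher in KMS11 and 2 in U266, against 34% and 29.8%. With 6 genes, these counts are not set apart from the shares over all genes. ETV4 and ETV1, the closest relatives of ETV5, were both highest in RPMI8226. ETV4 read 7.46 and 7.46 there, 6.72 and 6.60 in KMS11, and 6.23 and 6.22 in U266, which is the order of DUSP6. ETV1 read 7.44 and 7.30 in RPMI8226, 4.77 and 4.93 in KMS11, and 5.30 and 5.20 in U266, which is the order of ETV5. DUSP16, a phosphatase of JNK, was highest in KMS11, at 7.83 and 7.83, as DUSP5 was, and CCND1, the cyclin D1 gene, was highest in U266, at 9.98 and 10.0.

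Of 27 genes of the cascade itself 14 were named and 13 tested. Against RPMI8226, 7 of the 13 were higher in KMS11 and 1 lower, where all tested genes gave 35.6% and 29.4%. Against U266, 8 were higher in KMS11 and 2 lower, where all tested genes gave 34% and 29.8%. Between RPMI8226 and U266, 3 were higher in RPMI8226 and 2 in U266, where all tested genes gave 32.4% and 35.1%. MAP2K1, encoding the kinase MEK1, was the gene lower in KMS11 than in RPMI8226, with 8.30 and 8.26 in KMS11 against 9.34 and 9.30 in RPMI8226 and 9.62 and 9.57 in U266. SOS1, an exchange factor that loads RAS, was highest in KMS11, at 9.17 and 9.10, as was SHC1, an adaptor of receptor kinases, at 9.03 and 9.07. SRF, the factor that binds CArG boxes, read 7.92 and 8.14 in KMS11, 7.10 and 6.96 in RPMI8226, and 7.18 and 7.26 in U266. KMS11 thus had the highest SRF beside the lowest EGR1, and its difference from RPMI8226 passed the test (RPMI8226 minus KMS11 -0.997 log2 units, limma adjusted p = 0.000483).

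Of 18 receptor tyrosine kinase genes 13 were named and 3 tested. FGFR3 was high in KMS11 alone, at 8.62 and 8.69, and INSR, the insulin receptor gene, was lowest in RPMI8226, at 6.46 and 6.49 against 8.64 to 8.80 in the other lines. IGF1R lay between 6.84 and 7.31 on all arrays. Between RPMI8226 and KMS11, IGF1R was higher in RPMI8226 and FGFR3 and INSR in KMS11 (29.4% and 35.6% of all tested genes). Between KMS11 and U266, FGFR3 was higher in KMS11 (34%) and 0 of the 3 genes in U266 (29.8%). Between RPMI8226 and U266, IGF1R was higher in RPMI8226 (32.4%) and INSR in U266 (35.1%). FGFR3 was also called there (limma adjusted p = 0.0371), but it read 3.93 and 3.95 in RPMI8226 and 3.56 and 3.78 in U266, near the array medians, and passed the filter through KMS11. The 2 calls higher in RPMI8226 became 1 with array centring, with a variance trend and without KMS11.

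With the mimic, 0 genes of these 4 lists were called by limma. Of the 19 other immediate early genes, 12 had a lower mean with mimic, and the list's median changes were 0.13, -0.07 and -0.06 for RPMI8226, KMS11 and U266, where all tested genes gave 0.01, -0.0011 and -0.02. DUSP1 gave 0.10, -0.42 and -0.17, the same signs as FOS in each line. ATF3 gave 0.13, -0.19 and -0.37 and MYC -0.08, 0.11 and -0.49, none past 1.5-fold. FOSL1 did pass 1.5-fold in KMS11, with 4.44 in control and 3.83 in mimic, as 0.873% of tested genes did there either way. In the other lines FOSL1 read higher with mimic, at 6.25 and 6.46 in RPMI8226 and 3.86 and 4.05 in U266. FOSB in KMS11 read 7.86 and 7.31, within 1.5-fold. In U266 FOSB read 5.38 and 5.52, opposite in sign to FOS there, so the signs of FOS were not shared by the whole list. The median mean change was -0.06 over the other feedback and output genes, -0.02 over the cascade and 0.08 over the receptors.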

How the data were processed

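Values were used on the log2 scale on which the authors deposited them, 1 column per array and nothing pooled, for 53617 probe sets on 6 arrays. The submitters' processing notes list Expression Console 1.3.0, with no settings. How background was corrected and arrays normalized and summarized is not given in the sources used here, nor is the build, so whether arrays were centred against one another is unknown, and changes of weakly expressed genes may be compressed. No spot-level signals or detection calls were used here, and the number of arrays limits the precision.

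The platform annotation gave 1 symbol to 16098 probe sets, several to 0, and left 37519 unnamed. All 16098 gene identifiers matched the RefSeq table (GRCh38.p14), and 0 symbols changed. Per gene, the probe set with the highest mean was used. The mimic was tested in limma 3.58.1 (R 4.3.3) by lmFit and eBayes, with no variance trend and a block for cell line, over the 7442 genes at or above the median mean. P-values are two-sided and Benjamini-Hochberg adjusted over all genes of a fit, with a threshold of 0.05. The line label pairs the arrays, whose deviations had correlations of 0.97, 0.967 and 0.97 for RPMI8226, KMS11 and U266. Lines were compared pairwise in the same fit, each by 2 arrays of different treatment. The test of 1 line's change against the others was added after the values were seen. The fits were checked on simulated data.

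The members and lists were chosen with earlier results of these data known. All members are named, and from each other list the 4 tested genes with the widest range of line means; XBP1, IER2, IER3 and others were named after their values were seen, as were medians of 3 to 6 members. For EGR1 and DUSP6 the 5 genes of highest Pearson's r are named. The alternatives were no filter, the upper 25% of genes, array centring, quantile normalization, the mean of probe sets, a variance trend, no block, no treatment term, control or mimic arrays only, and leaving out each line. 3′ ends of transcripts were not analysed here, so seed matches to miR-10a were not searched.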

Additional observations from a re-analysis of the deposited data

How the results depend on the processing

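The count of genes called with the mimic was 0 in the main fit and under all 10 alternatives, including those without each line, where the smallest adjusted p ranged from 0.337 to 1 over the alternatives. Leaving out each line gave mean mimic changes from -0.27 to 0.0146 for FOS, from -0.0742 to 0.11 for JUNB, from -0.08 to 0.0258 for DUSP6 and from -0.0683 to 0.13 for SPRY2. The sign turned without KMS11 for the first 3 and without RPMI8226 for SPRY2; the cause was not tested. The other 5 members kept their sign under every alternative run, and no member was called under any. In the upper 25% of genes, where 3721 genes were tested in place of 7442, the calls between lines were 2933 for RPMI8226 against KMS11, 2899 for RPMI8226 against U266 and 2852 for KMS11 against U266, in place of 4838, 5017 and 4748; the fewer genes tested lower these counts. As a share of the genes tested, the calls in the upper 25% were more frequent than in the main fit for each pair of lines. The other 21 counts between lines were within 1.5 times. Of 135 recomputed line differences of the members, 90 moved by less than the spread within lines and 45 by more. KMS11 minus U266 of SPRY2 was -0.0027 in control arrays and 0.16 in mimic arrays. Changes within a line rest on 1 array per treatment and have no replicate check.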
